A study of Mus musculus with 13 samples.

Results

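Ablim1, Chmp2b, Mef2a, Cnpy2, Ngdn, and Tmx1 were the 6 genes examined, in common lymphoid progenitors (CLPs) sorted from the BM of 13 mice. They were chosen by their low or zero values in the 3 Notch1+/dTAD libraries together with their presence in WT or Notch1+/- libraries, out of 24972 genes listed for every library, of which 10149 were above 0 in at least 1. There were 5 WT, 5 Notch1+/-, and 3 Notch1+/dTAD libraries, each from the CLPs of 1 adult C57BL/6 mouse aged 6 to 12 weeks. Notch1+/- mice have 1 working copy of Notch1, and in Notch1+/dTAD mice 1 copy encodes a receptor without its transactivation domain. The labels name no Cre or promoter that would limit either allele to CLPs, and no group was treated. Cells were gated as DAPI-, Lin-, Sca1Lo, cKitLo, CD127+, CD135+, and RNA was read by strand-specific 3′ sequencing.

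Notch1 is a cell surface receptor whose intracellular part is cut free when a neighboring cell presents a ligand, moves to the nucleus, and joins the DNA-binding protein RBPJ and a Mastermind coactivator at target genes. The transactivation domain adds to the activity of that complex. CLPs are marrow progenitors of B, T, and NK cells and are among the cells that can seed the thymus, where Notch1 directs the T cell fate.

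The 6 genes encode proteins of different compartments. Ablim1 encodes an actin-binding LIM protein of the cytoskeleton. Chmp2b encodes a subunit of the ESCRT-III complex, which closes and cuts membrane necks at endosomes, at the dividing cell's midbody, and at damaged membranes. Mef2a encodes a MADS-box transcription factor that shares its DNA site with Mef2c and Mef2d. Cnpy2 encodes a canopy family protein of the ER, and Tmx1 a thioredoxin-like oxidoreductase anchored in the ER membrane. Ngdn encodes neuroguidin, a protein of the small subunit processome, the nucleolar assembly that makes the small ribosomal subunit.

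The genes lie on 6 chromosomes of GRCm38 and do not neighbor each other. Ablim1 spans chr19:57032733-57314919 on the minus strand, and its main coding transcript has 26 exons and 7152 bases. Chmp2b spans chr16:65539128-65562726 on the minus strand, with 6 exons and 1872 bases. Mef2a spans chr7:67231163-67372858 on the minus strand, with 11 exons and 2664 bases. None of these 3 genes shares a strand with a coding gene that overlaps it. Cnpy2 spans chr10:128322459-128327553 on the plus strand, with 6 exons and 1383 bases. Ngdn spans chr14:55015454-55024137 on the plus strand, with 11 exons and 1200 bases, and Tmx1 spans chr12:70453095-70468040 on the plus strand, with 8 exons and 2795 bases. The 3′ UTR, from which 3′ libraries take most of their reads, was longest in Ablim1 with 4491 bases and shortest in Ngdn with 129 bases. Lysmd4 overlaps Mef2a on the other strand and was at 0 in 12 of 13 libraries and had 119 TPM in the other.

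The 250 bases before each RefSeq transcription start, 10 windows over the 6 genes, were searched on both strands for TGGGAA, the core of the sequence bound by RBPJ. Windows with and without a match are shown because RBPJ is the factor through which Notch1 reaches DNA. The capitals mark the match, which reads TTCCCA where it lies on the other strand. The Cnpy2 window is chr10:128322209-128322458 on the plus strand, the Ablim1 windows are chr19:57197632-57197881 and chr19:57119025-57119274 on the minus strand, and the Chmp2b window, shown as one without a match, is chr16:65562763-65563012 on the minus strand.
Cnpy2: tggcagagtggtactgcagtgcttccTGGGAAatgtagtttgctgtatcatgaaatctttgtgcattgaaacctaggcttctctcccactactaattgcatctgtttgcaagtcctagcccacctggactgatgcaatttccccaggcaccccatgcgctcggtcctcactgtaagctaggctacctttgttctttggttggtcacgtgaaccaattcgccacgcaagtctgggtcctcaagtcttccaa
Ablim1, window 4: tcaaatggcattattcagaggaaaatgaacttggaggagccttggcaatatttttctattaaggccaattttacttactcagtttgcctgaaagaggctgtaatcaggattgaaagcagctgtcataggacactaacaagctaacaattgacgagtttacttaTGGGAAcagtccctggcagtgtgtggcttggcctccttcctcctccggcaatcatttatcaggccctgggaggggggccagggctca
Ablim1, window 5: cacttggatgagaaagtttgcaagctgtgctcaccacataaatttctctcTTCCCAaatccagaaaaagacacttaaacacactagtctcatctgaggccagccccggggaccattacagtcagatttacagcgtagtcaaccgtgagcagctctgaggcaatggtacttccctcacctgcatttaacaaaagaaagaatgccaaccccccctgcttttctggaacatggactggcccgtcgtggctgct
Chmp2b: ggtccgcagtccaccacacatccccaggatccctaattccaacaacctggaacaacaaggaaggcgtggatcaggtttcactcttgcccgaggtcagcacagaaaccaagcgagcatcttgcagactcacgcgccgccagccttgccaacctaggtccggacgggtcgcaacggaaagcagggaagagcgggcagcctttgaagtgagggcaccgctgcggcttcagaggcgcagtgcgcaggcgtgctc
In Cnpy2 the match began 224 bases before the start. In Ablim1 it began 87 bases before the start in one window and 200 bases before it in the other. The core was in 3 of the 10 windows and in 21.6% of all 32851 RefSeq mouse windows of this length. The longer GTGGGAA was in 0 of the 10 windows and in 5.42% of all. Chmp2b, Mef2a, Ngdn, and Tmx1 held neither, which says only that these letters are not in these windows. GC content was 67.2% in the Tmx1 window and 45.2% in the Ngdn window, around a median of 52.4% over all windows.

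Values are TPM, transcript abundances scaled to a fixed sum in each library, as the authors deposited them, without read counts. An exact 0 was also found for genes that every cell uses. Gapdh was at 0 in 2 libraries and reached 307 TPM in another, and 0 to 5 of 16 housekeeping genes were at 0 in a WT library, 0 to 4 in a Notch1+/- library, and 0 to 1 in a Notch1+/dTAD library. Among genes at 1 TPM or more in at least 8 of the other 12 libraries, 11.2% to 20.5% were at 0 in a WT library, 2.71% to 28.4% in a Notch1+/- library, and 4.19% to 10.5% in a Notch1+/dTAD library. Every Notch1+/dTAD library was below every WT library in this share (2-sided exact permutation test, p = 0.0357, 0.0714 after Benjamini-Hochberg adjustment over 4 such tests). The sort markers Flt3 and Il7r, the receptors behind CD135 and CD127, were above 0 in 13 and 12 of 13 libraries. Of the lymphoid priming genes, Dntt, Ly6d, and Ikzf1 were above 0 in 13, and Ebf1, Rag1, Tcf3, and Rag2 were at 0 in 1, 2, 3, and 7. Kit was at 0 in 5 libraries and Ly6a in 8. The sort markers together gave 155 to 472 TPM in WT, 5.21 to 810 TPM in Notch1+/-, and 155 to 376 TPM in Notch1+/dTAD libraries, and the 7 lymphoid priming genes gave 5319 to 9102, 2457 to 10661, and 5463 to 6030 TPM. Of T and NK markers, Cd3e, Cd3g, Cd8a, Ncr1, and Klrb1c were at 0 in all libraries. Cd4 was at 0 in 11 and Nkg7 in 8, and both were highest in WT library 10, at 187 and 1122 TPM. The highest sums of the T and NK list were 1309, 36.7, and 262 TPM in the same order, and those of the erythroid list 0, 17.6, and 1.36 TPM. B cell markers summed to 1.04 to 841, 14.4 to 1834, and 65.8 to 1511 TPM and myeloid markers to 278 to 2066, 8.84 to 1257, and 272 to 1714 TPM. The part of other cells in the results below was not tested, and in bulk RNA fewer cells of a type and less RNA per cell cannot be told apart.

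Low values moved in steps in part of the genes. In each library 1 TPM value recurred in 12 to 57 genes, between 0.55 and 1.41 TPM depending on the library, and of 4522 genes above 0 in at least 6 libraries, 292 (6.46%) were whole multiples of it, to the rounding of the 6 decimals, wherever they were above 0. These genes were short, with a median longest transcript of 1062 bases against 3625 bases for the rest. Ngdn was one of them, in 11 of 11 libraries above 0, and the other 5 genes were whole in none. If a step is 1 read, which the sources used here do not state, the Ngdn value is a read number, whereas for the other 5 genes no read number is known. The paper describes libraries amplified by PCR from low RNA input, so a read number need not be a number of RNA molecules.

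Ablim1 was above 0 in every WT library and near 0 in every Notch1+/dTAD library. It had 91.9, 231, 121, 61.0, and 40.0 TPM in WT libraries 1, 2, 3, 10, and 11. It was at 0, 41.2, 44.1, 8.66, and 45.3 TPM in Notch1+/- libraries 4, 5, 6, 12, and 13. In Notch1+/dTAD libraries 7, 9, and 14 it was at 0, 0, and 0.419 TPM. The WT and Notch1+/dTAD values did not overlap, and 3 of the 5 Notch1+/- values lay just above the lowest WT value.

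Chmp2b was the only 1 of the 6 genes listed at 0 in all 3 Notch1+/dTAD libraries. In WT libraries it had 52.0, 21.2, 75.5, 53.4, and 31.3 TPM, in the same order of libraries. In Notch1+/- libraries it was at 0.922, 44.5, 0, 0, and 0.112 TPM. A single Notch1+/- library, number 5, thus held a value within the WT range, and the other 4 were under 1 TPM, like the Notch1+/dTAD libraries.

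Mef2a had low but regular values in WT, at 5.82, 4.39, 6.72, 4.28, and 2.49 TPM. In Notch1+/- libraries it was at 8.73, 1.18, 0.149, 1.31, and 3.63 TPM, which reached both above and below the WT range. In Notch1+/dTAD libraries it was at 0.0128, 0, and 0 TPM. Every Notch1+/dTAD value was below every value of the other groups, though 0.0128 and the Notch1+/- value of 0.149 TPM were both below the step of their library.

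The 2 ER genes behaved differently in Notch1+/- libraries. Cnpy2 had 83.5, 452, 225, 275, and 64.8 TPM in WT, 0, 248, 0, 92.4, and 0.338 TPM in Notch1+/-, and 0, 2.88, and 1.69 TPM in Notch1+/dTAD libraries. Its Notch1+/- values fell apart into 2 libraries within the WT range and 3 under 1 TPM. Tmx1 had 18.6, 15.2, 66.8, 109, and 72.2 TPM in WT, 58.5, 72.0, 0, 37.0, and 71.6 TPM in Notch1+/-, and 0, 0.122, and 1.05 TPM in Notch1+/dTAD libraries. For Tmx1, 4 of 5 Notch1+/- libraries were within the WT range and number 6 was at 0.

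Ngdn had the widest WT range of the 6, at 0.745, 629, 926, 17.0, and 4.17 TPM. In Notch1+/- libraries it was at 423, 363, 233, 124, and 113 TPM, all between the low and the high WT libraries. In Notch1+/dTAD libraries it was at 0, 0, and 1.36 TPM. In steps, the WT values were 1, 521, 988, 12, and 4, the Notch1+/- values 543, 357, 208, 210, and 206, and the Notch1+/dTAD values 0, 0, and 1. WT library 1 and Notch1+/dTAD library 14 therefore each held 1 step, and the groups overlapped only through that WT library. Under the reading of a step as 1 read, a 0 allows up to 3 steps, which is 2.27 TPM in library 7 and 3.65 TPM in library 9. Both limits were above the value in WT library 1 and below that in WT library 11. No limit was worked out for the 1 step of library 14, so these limits do not set it apart from WT library 11. Intervals of this kind cover the counting error of reads only, and not the PCR amplification before it.

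**Figure D1:**
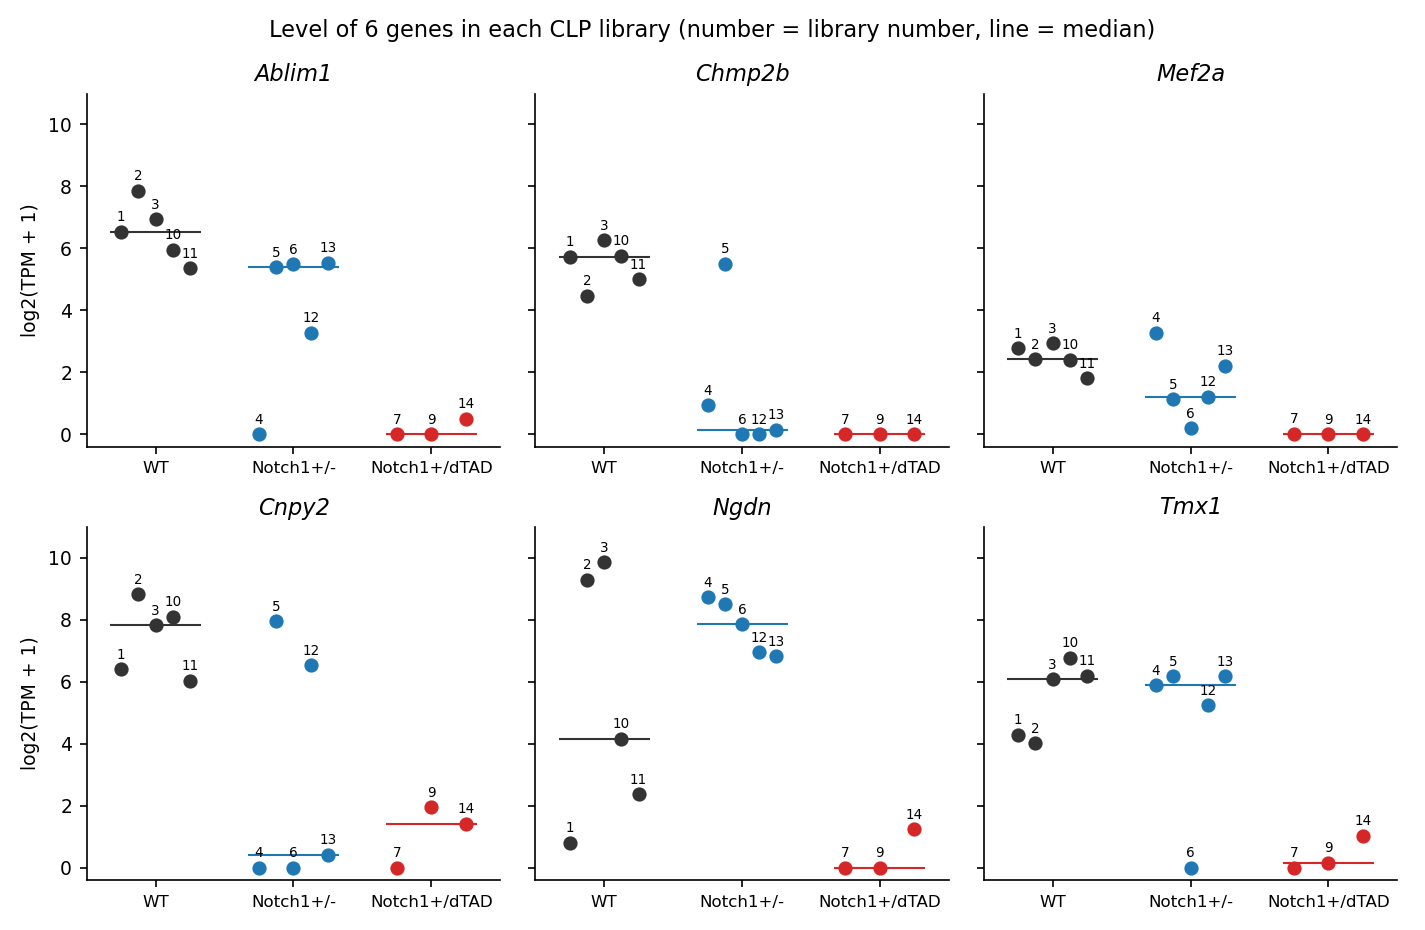
TPM of the 6 genes (vertical axis, log scale of TPM + 1) in each library, with 1 point per mouse by genotype and short bars at the median. Notch1+/dTAD points sit at or near 0 in every panel, WT points are at 15.2 TPM or more for Ablim1, Chmp2b, Cnpy2, and Tmx1, at 2.49 to 6.72 TPM for Mef2a, and at 0.745 to 926 TPM for Ngdn.

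The number of the 6 genes listed at 0 differed between libraries of the same mutant genotype. Of the 6 genes, 5, 4, and 2 were at 0 in Notch1+/dTAD libraries 7, 9, and 14. None was at 0 in any WT library, and 2, 0, 3, 1, and 0 were at 0 in Notch1+/- libraries 4, 5, 6, 12, and 13. The Notch1+/- library with 0 genes under 1 TPM was number 5, and number 6 had 4. Of 928 genes at 1 TPM or more in all 5 WT libraries, 4 (0.431%) were under 1 TPM in all 3 Notch1+/dTAD libraries, and they were Ablim1, Chmp2b, Mef2a, and Il21r, the receptor for IL-21. Il21r, which had 15.2 to 295 TPM in WT and at most 0.447 TPM in Notch1+/dTAD libraries, is not one of the 6. Chmp2b alone (0.108%) was at 0 in all 3. These shares describe the choice and test nothing. Library by library, 33, 39, and 14 of the 928 genes were at 0 in Notch1+/dTAD libraries 7, 9, and 14. Of the same 928 genes, 311 were under 1 TPM in at least 1 Notch1+/- library. Ablim1, Chmp2b, Mef2a, Cnpy2, and Tmx1 were among these 311, so a low value in some Notch1+/- library does not set them apart.

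**Figure D2:**
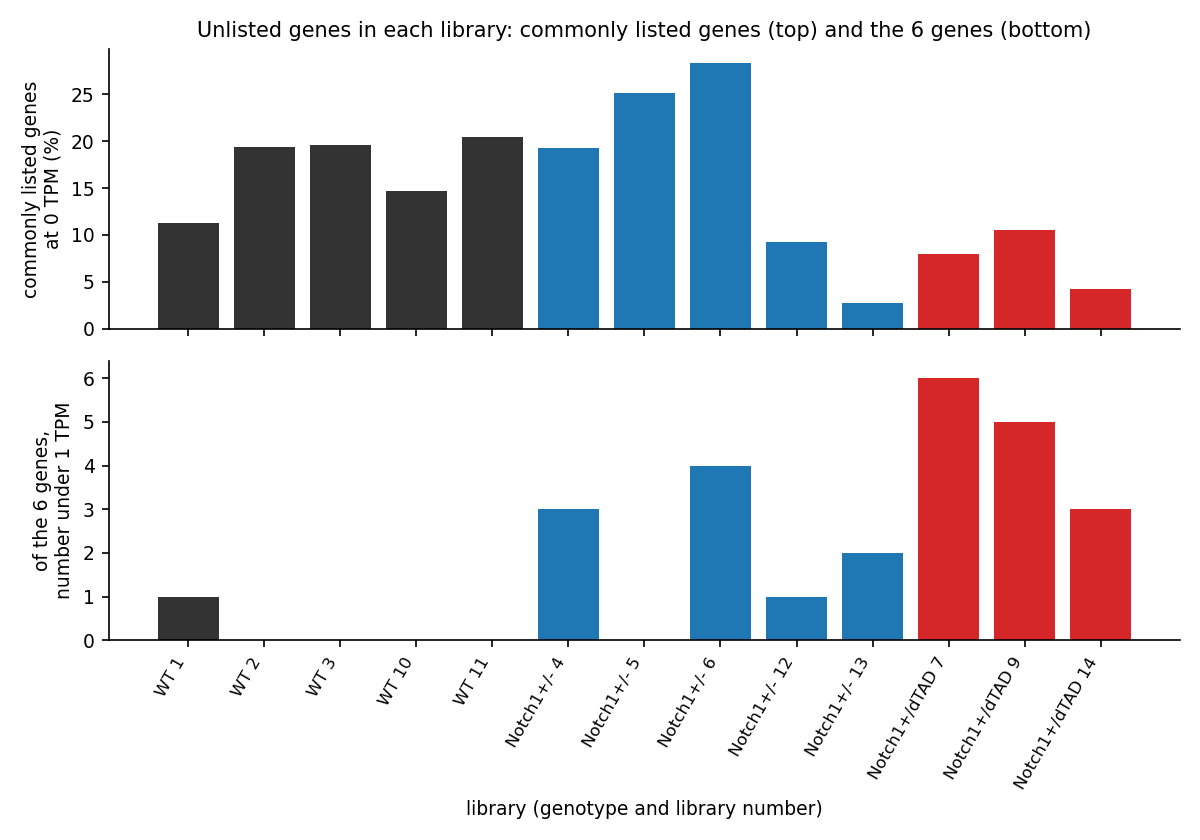
Number of the 6 genes listed at 0 TPM or above 0 but under 1 TPM (vertical axis) in each of the 13 libraries, grouped by genotype. Notch1+/dTAD library 7 had 6 genes under 1 TPM, libraries 9 and 14 had 5 and 3, and among WT libraries only number 1 had any, with 1.

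The comparison of Notch1+/dTAD with WT, which asks what the loss of the transactivation domain from 1 copy does in CLPs, chose the 6 genes, so their differences are given as a description. All differences are Notch1+/dTAD minus WT in mean log2(TPM + 1) and depend on the added 1 TPM. They were -6.36 for Ablim1 (SE 1.57), -6.31 for Cnpy2 (SE 1.42), -5.45 for Chmp2b (SE 1.67), -5.07 for Tmx1 (SE 1.70), -4.89 for Ngdn (SE 2.31), and -2.46 for Mef2a (SE 1.11). Mef2a, with the smallest difference, also had the lowest WT levels. Among 4737 tested genes ordered from the most negative difference, the 6 held ranks 2, 3, 7, 9, 13, and 252, in the order just given. The groups did not overlap for 5 of the 6 genes, Ngdn being the exception, whereas 35 of all tested genes (0.739%) were lower without overlap. That count was fixed by the choice of genes. In limma, 0 of 4737 genes (0%) passed an adjusted p of 0.05, with 237 at an unadjusted p under 0.05 and 15 passing in limma without the mean-variance trend. The authors' own test, by another method, found genes that differed between these groups, Il21r among them. The count of 0 therefore does not mean that no gene differs. Over all tested genes the median difference was 0.47, which quantile normalization moved to -0.02.

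The 6 genes passed the minimum level of this comparison through the WT libraries, since no Notch1+/dTAD library except number 14 for Ngdn and Tmx1 and numbers 9 and 14 for Cnpy2 reached 1 TPM. Within libraries 1 to 9 and within libraries 10 to 14, which each hold all 3 genotypes, the differences were negative for all 6 genes. The choice of genes with low Notch1+/dTAD values made these signs likely in any part of the libraries, so they are a description. Among libraries 10 to 14, number 14 alone was Notch1+/dTAD. Ngdn varied most between the ranges, at -6.65 and -2.03, and Chmp2b least, at -5.49 and -5.39. Just inside the choice stood Ngdn, whose Notch1+/dTAD value of 1.36 TPM exceeded a WT value, and Cnpy2 with 2.88 TPM. The choice had no numeric limit, and Il21r, at most 0.447 TPM in Notch1+/dTAD libraries, was as low as the chosen genes without being one.

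Between Notch1+/- and WT CLPs, which asks what the loss of 1 working copy does, the choice asked for no difference. Yet it used the WT and Notch1+/- values, and genes picked for high WT values tend to be lower elsewhere, so the differences of the 6 genes are again a description, without a test. Chmp2b and Cnpy2 reached the minimum of 5 libraries at 1 TPM or more only through WT, with 1 and 2 Notch1+/- libraries at that level. This comparison and the one above share the 5 WT libraries, so their values stand side by side and do not support each other. In limma, 0 of 3178 genes (0%) passed, with 170 at an unadjusted p under 0.05 and 2 passing without the trend. Of all tested genes 12 (0.378%) were lower in every Notch1+/- than in every WT library, and of the 6 genes 0 were.

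Chmp2b had a Notch1+/- minus WT difference of -4.13 (SE 1.50). The SEs given here make no allowance for the choice of genes. The Chmp2b difference lay between -5.17 and -3.80 whichever library was left out. It was -6.09 with a pseudocount of 0.1 and -1.90 with a pseudocount of 10. Cnpy2 had a difference of -4.45 (SE 1.71). It lay between -5.70 and -3.71 whichever library was left out, and at -6.10 and -2.59 with the smaller and the larger pseudocount. Chmp2b and Cnpy2 ranked 35 and 22 from the most negative of 3178 genes, and both were under 1 TPM in at least 3 of 5 Notch1+/- libraries, which held for 38 (4.09%) of the 928 genes at 1 TPM or more in all WT libraries.

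Ablim1 had an intermediate level in Notch1+/- CLPs, with a difference of -2.59 (SE 1.35). It lay between -2.99 and -1.60 whichever library was left out. Mef2a had a difference of -0.86 (SE 0.98), and without Notch1+/- library 4, which held 8.73 TPM, it was -1.28. For Tmx1 the difference was -0.77 (SE 1.44). The sign of the Tmx1 difference rested on Notch1+/- library 6, without which it was 0.40.

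Ngdn went the other way, with a difference of 2.48 (SE 1.59). Its rank from the most negative was 2946 of 3178. The Notch1+/- values spanned 113 to 423 TPM, and the WT values lay above that range in 2 libraries and below it in 3. The groups overlapped for all 6 genes. The signs were the same within libraries 1 to 9 and within libraries 10 to 14 for each gene.

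**Figure D3:**
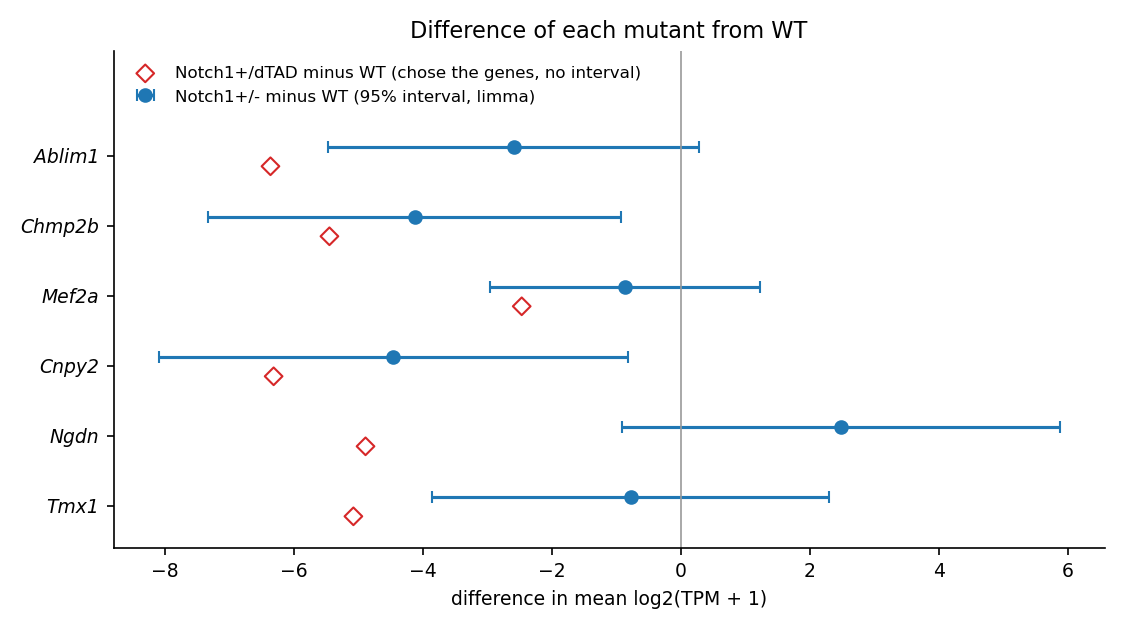
Difference in mean log2(TPM + 1) for the 6 genes, Notch1+/dTAD minus WT and Notch1+/- minus WT. Bars are limma confidence intervals, not standard errors, and are drawn for Notch1+/- minus WT only. They make no allowance for the choice of genes, which used these values too, so they are a description and not a test. Notch1+/dTAD minus WT, the comparison that chose the genes, is shown without an interval. Differences from WT run from -6.36 to -2.46 in Notch1+/dTAD and from -4.45 to 2.48 in Notch1+/- CLPs.

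Set against Notch1+/- CLPs, Notch1+/dTAD CLPs had lower mean values of all 6 genes, again a description because the choice used these libraries. In a model of all 13 libraries the difference was -7.37 for Ngdn (SE 1.87), -4.30 for Tmx1 (SE 1.75), -3.77 for Ablim1 (SE 1.69), -1.86 for Cnpy2 (SE 1.95), -1.60 for Mef2a (SE 1.31), and -1.32 for Chmp2b (SE 1.74). Ngdn and Mef2a were lower in every Notch1+/dTAD than in every Notch1+/- library, as were 39 of 6281 tested genes (0.621%). For Ngdn the nearest values were 1.36 and 113 TPM. For Mef2a they were 0.0128 and 0.149 TPM, both below the step of their library, so that separation lies at the floor. Of 951 genes at 1 TPM or more in every Notch1+/- library, Ngdn was 1 of 36 (3.79%) with this separation. In limma, 0 of 6281 genes (0%) passed, with 335 at an unadjusted p under 0.05 and 3 passing without the trend.

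The order of levels thus differed among the 6. By the median TPM, WT stood above Notch1+/- and Notch1+/- above Notch1+/dTAD for Ablim1 (91.9, 41.2, and 0), Chmp2b (52.0, 0.112, and 0), Mef2a (4.39, 1.31, and 0), and Tmx1 (66.8, 58.5, and 0.122). For Cnpy2, Notch1+/- was lowest by the median (0.338 TPM, against 1.69 TPM in Notch1+/dTAD and 225 TPM in WT). For Ngdn, Notch1+/- was highest (233 TPM, against 17.0 TPM in WT and 0 in Notch1+/dTAD). Neighbors in these orders overlapped in range except for WT against Notch1+/dTAD in Cnpy2, Notch1+/- against Notch1+/dTAD in Mef2a.

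The closest relatives of 4 of the genes had other patterns, though a minimum level of 1 TPM in 3 libraries favors genes that the 3 Notch1+/dTAD libraries list. Of 10 other genes of the Chmp2, Mef2, Cnpy, and Tmx families, 8 were above 0 in any library and 5 were tested. Chmp2a, the other Chmp2 subunit, had 182 and 754 TPM in WT libraries 1 and 10 and was at 0 in the other 3, and had 6.06, 3.65, and 120 TPM in Notch1+/dTAD libraries. The difference was 0.57 (SE 2.57, limma adjusted p = 0.996), with an interval of -4.95 to 6.09. Mef2c, a lymphoid member of its family, was above 0 in all 13 libraries, at 31.7 to 56.9 TPM in WT and 34.8 to 78.6 TPM in Notch1+/dTAD (0.42, SE 1.25, limma adjusted p = 0.996). Mef2d had 0 to 184 TPM in WT and 9.91 to 72.8 TPM in Notch1+/dTAD libraries (1.05, SE 2.06, limma adjusted p = 0.996).

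Cnpy3, an ER chaperone of Toll-like receptors, was at 15.7 to 245 TPM in WT and 81.0 to 150 TPM in Notch1+/dTAD libraries (0.55, SE 1.15, limma adjusted p = 0.996). Tmx3 had at most 6.13 TPM in WT and 7.59 TPM in Notch1+/dTAD libraries (1.23, SE 1.06, limma adjusted p = 0.981). Mef2b and Cnpy1 were at 0 in all 13 libraries. Tmx2, Tmx4, and Cnpy4 were below the minimum for the test. Tmx2 was at 0 in 3 of 5 WT libraries and reached 124 TPM in another, and Tmx4 was at 0 in all 5, and in Notch1+/dTAD libraries both were at 0 in 2 of 3, with at most 7.77 and 0.606 TPM. Cnpy4 was at 0 in all WT libraries and at 0.474 to 130 TPM in Notch1+/dTAD libraries. The family genes other than Mef2c were named after their values were seen.

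In the wider groups to which the 6 genes belong, no gene passed the test. The 6 lists of partner genes hold 145 symbols, of which 140 were in the tables and 78 were tested between Notch1+/dTAD and WT CLPs. None passed in limma (0 of 78, where the share over all genes was 0%), with a smallest adjusted p of 0.952, and 1 had an unadjusted p under 0.05. Of the 78, 44 had a positive and 34 a negative difference, with a median of 0.35 beside 0.47 over all genes, and 0 were lower without overlap, where the share over all genes was 0.739%, so the count says nothing about the lists. Between Notch1+/- and WT, 0 of 51 passed, and between Notch1+/dTAD and Notch1+/-, 0 of 96.

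By list, the median difference between Notch1+/dTAD and WT was 1.43 for 5 tested actin-binding LIM and villin headpiece genes, 0.39 for 14 ESCRT genes, 0.08 for 14 MEF2 factors and partners, 0.13 for 9 canopy and ER chaperone genes, 0.29 for 24 genes of the small subunit processome, and 0.82 for 12 ER thiol oxidoreductase and calnexin cycle genes. Of the actin-binding genes, the LIM proteins Pdlim1 and Pdlim2 had differences of 3.72 (SE 2.42) and 3.33 (SE 2.14), and Lasp1 and Limd1 of 1.43 (SE 1.67) and 0.28 (SE 2.27). Of the ESCRT genes, Vps28 of ESCRT-I had -2.95 (SE 2.06), Vps36 of ESCRT-II 1.99 (SE 2.56), and the ESCRT-III genes Chmp4b and Ist1 1.22 (SE 1.57) and 0.93 (SE 2.01). Vps28 was at 4.24 to 437 TPM in WT libraries.

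Among MEF2 partners, the class IIa deacetylases Hdac4 and Hdac7, which repress MEF2 targets, had differences of -1.98 (SE 1.22) and 0.19 (SE 0.90), and the MEF2-binding Cabin1 0.95 (SE 1.71). Manf, a secreted factor of the ER stress response, had the 1 unadjusted p under 0.05, with a difference of 4.71 (SE 2.12, limma adjusted p = 0.952). The chaperones Hspa5 and Hsp90b1 had -0.30 (SE 0.67) and 0.13 (SE 0.99), and the stress transcription factor Atf4 -1.67 (SE 1.28). Among processome genes, Krr1 had 3.24 (SE 1.53), Nop14 -3.16 (SE 2.26), and the box C/D proteins Nop58 and Fbl each 0.73 (SE 0.55 and 0.68). In the thiol list, Erp29 had 2.67 (SE 1.65), Zdhhc6, which palmitoylates ER proteins, 3.63 (SE 1.99), and the lectin chaperone Calr and its partner Pdia3 1.43 (SE 1.66) and 0.40 (SE 0.88). All these adjusted p-values in limma were 0.952 or higher.

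**Figure D4:**
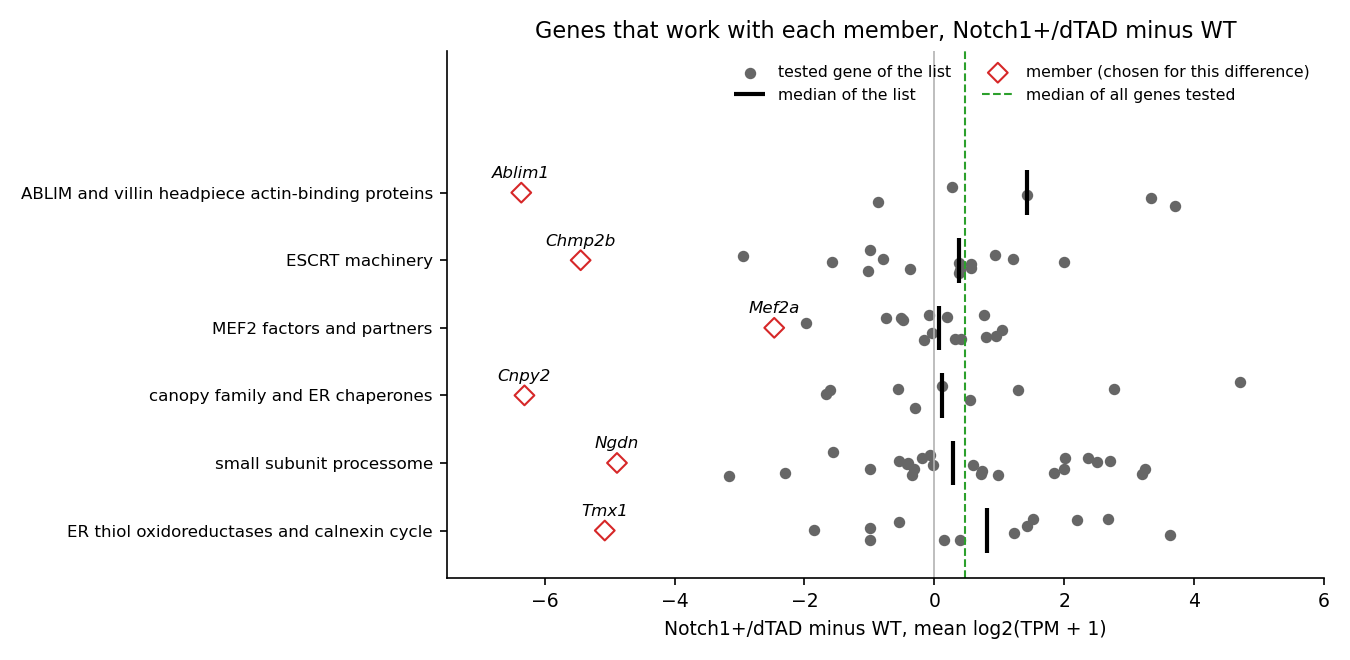
Difference in mean log2(TPM + 1), Notch1+/dTAD minus WT, for every tested gene of the 6 partner lists, with the median of each list and the 6 chosen genes marked apart. List medians run from 0.08 to 1.43, and 34 of the 78 partner genes lie below 0.

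The genes whose values were most like those of the 6 across the 13 libraries, by Pearson correlation of log2(TPM + 1) among 4306 genes, partly were the 6 themselves. Chmp2b and Cnpy2 were like each other (r = 0.837), as were Mef2a and Tmx1 (r = 0.805). Snd1 was most like Cnpy2 (r = 0.905), with 13.8 to 164 TPM in WT, 0 to 109 TPM in Notch1+/-, and 0 to 4.29 TPM in Notch1+/dTAD libraries. Fbxo45 was most like Chmp2b (r = 0.894), and Ccdc66 was among the 3 most like both Chmp2b (r = 0.814) and Cnpy2 (r = 0.776). Il21r was most like Mef2a (r = 0.846), followed by Chtf8 (r = 0.834).

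Pgp was most like Ngdn (r = 0.871), ahead of Gps2 (r = 0.842) and Ccdc12 (r = 0.826). Ipo5, an importin, was most like Tmx1 (r = 0.826), ahead of the ribosomal protein gene Rps12 (r = 0.810). For Ablim1 they were Elp3 (r = 0.841), Anapc5 (r = 0.763), and Nol7 (r = 0.728). The points of each correlation share libraries, genotypes, and the zeros of each library, and with 4306 genes to choose from high values arise easily, so these are descriptions.

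The genes next to the 6 on the chromosome gave little to compare. Of the 12 nearest coding genes, 6 were at 0 in every library and 2 were tested. Cs, next to Cnpy2, had a difference of -0.36 (SE 1.70) and Frmd6, next to Tmx1, of 1.00 (SE 1.43), both with a limma adjusted p of 0.996. Pan2 ends 1101 bases before Cnpy2 on the same strand and was at 0 to 148 TPM in WT and 0 to 35.3 TPM in Notch1+/dTAD libraries.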

How the data were processed

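TPM values were the authors' own, deposited in 2 tables that set each mutant beside WT. The WT columns were identical in both, and 0 columns were left unused. For these, FASTQ Toolkit served for trimming, STAR (within RNA-Seq Alignment) for mapping, and RNA-Seq Differential Expression for the authors' test, and the labels name mm10 as the build. The tool, annotation, filter, and strand setting behind the deposited TPM are not given in the sources used here. TPM divide by transcript length, which in 3′ libraries lowers long transcripts against short ones, so a level set between genes is per length and uncertain. TPM are also shares of 1 library, so high genes push the others down. Read counts were not used here, which leaves precision to the spread between mice. The labels and the methods disagree on the number of sorted cells, and no number is given.

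Values were transformed to log2(TPM + 1) and fitted in limma 3.58.1 (R 4.3.3; lmFit and eBayes with trend, 2-sided), over genes at 1 TPM or more in 3 of 8 libraries for Notch1+/dTAD against WT, 5 of 10 for Notch1+/- against WT, and 3 of 13 for the model of all libraries. The threshold was a Benjamini-Hochberg adjusted p of 0.05 over all genes tested. Library measures were compared by exact permutation tests. Such tests were also planned for Notch1+/- minus WT in the 6 genes, and their p-values are not given because the choice of genes used these values. The limma script was tested on the deposited values, with those of each gene dealt out anew to the libraries and some genes then shifted. That test covered only the comparisons of each mutant with WT. The 6 genes and all gene lists were chosen with earlier results of these data known. Genes named are the 6, from each partner list the 2 tested genes with the smallest p and the 2 with the highest level, the 3 genes most correlated with each of the 6, and overlapping and neighboring genes. Family genes and the steps of the low values were added after values were seen. Alternatives were other pseudocounts, minimum levels, scalings, eBayes without trend, a term for the library range, and leaving out each library in turn. Gene models come from GENCODE M21 (GRCm38) and promoter windows from RefSeq (GRCm38.p6).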

Additional observations from a re-analysis of the deposited data

Results flagged for a closer look

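Chmp2b in Notch1+/- library 5 stood apart from the other 4 libraries of its group. Its 44.5 TPM compared with at most 0.922 TPM in the others, and the gap was 0.979 of the group's range, above the critical value of 0.71 for 5 samples. Of 12 groups examined, this was the 1 above its critical value. The usual rate of 1 in 20 groups, or 0.6, holds for normally distributed values. These TPM are skewed with many zeros, so that rate cannot be relied on here. The choice of genes also used the WT and Notch1+/- values, so the gap is a description and not a test. The same library had the highest Notch1+/- value of Cnpy2, 248 TPM. Why it differs was not tested.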

How the results depend on the processing

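Each library number belongs to 1 mouse, and no link between mice of different genotypes was available here, so no paired analysis was made. Without the mean-variance trend in limma, 15 genes passed between Notch1+/dTAD and WT, 2 between Notch1+/- and WT, and 3 between the mutants, against 0 otherwise, and the cause was not tested. Leaving out each library gave 0 genes in all 3 comparisons. For Notch1+/- minus WT, leaving out 1 library moved Ablim1 between -2.99 and -1.60, Chmp2b between -5.17 and -3.80, Mef2a between -1.28 and -0.51, Cnpy2 between -5.70 and -3.71, Ngdn between 1.36 and 3.62, and Tmx1 between -1.14 and 0.40. The Tmx1 sign turned to 0.40 without Notch1+/- library 6. Pseudocounts of 0.1 and 10 gave -3.28 and -1.73 for Ablim1, -6.09 and -1.90 for Chmp2b, -1.42 and -0.21 for Mef2a, -6.10 and -2.59 for Cnpy2, 2.76 and 1.61 for Ngdn, and -1.41 and -0.27 for Tmx1. Of the Notch1+/dTAD differences from WT or Notch1+/-, 17 values under the alternatives moved by more than the spread between libraries, through these pseudocounts or, for Mef2a against WT, quantile normalization (-2.98), and none changed sign. The depth behind the values is not known, and 1 step of 0.55 to 1.41 TPM may be a lone read.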
